A study of Mus musculus with 10 samples.

Results

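The 10 genes described here make, break down or sense prostaglandins, and all 10 were found by symbol among the 35275 genes of the deposited expression table. They are Pla2g4a, Ptgs1, Ptgs2, Ptges, Ptges2, Ptges3, Hpgds, Hpgd, Ptger2 and Ptger4. The libraries came from whole mammary glands of BALB/c mice, an inbred strain, on day 3 of lactation. The LPS group (5 libraries) received 50 µL of lipopolysaccharide of Escherichia coli at 0.4 mg/mL through the teat, and the PBS group (5 libraries) received sterile phosphate-buffered saline. Left and right glands of the 4th pair received one or the other, and they were taken 12 h after injection. The labels give n = 9 and do not say which mice the 10 libraries came from, so the p-values below speak for the spread of these libraries, which may be technical. PBS glands were also injected, and each gland was sequenced as mixed tissue, in which fewer cells of a type and less RNA per cell cannot be told apart.

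Prostaglandins are lipid mediators made on demand and not stored. Cytosolic phospholipase A2 releases arachidonic acid from membranes, a cyclooxygenase turns it into prostaglandin H2, and terminal synthases convert that into prostaglandin E2, prostaglandin D2 and related products. Prostaglandin E2 acts near its source through G protein-coupled receptors and is inactivated by a dehydrogenase inside cells. In the mammary gland, prostaglandins in milk are long-known signs of mastitis, and endotoxin is a textbook inducer of the cyclooxygenase encoded by Ptgs2.

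Each library held 15734303 to 18869545 counted reads, and 1 read in a gene of 1 kb gave 0.053 to 0.0636 FPKM (reads normalised to gene length and to depth). Milk protein genes held 32.2% to 44.3% of the summed FPKM in LPS libraries and 38.6% to 49.9% in PBS libraries. The filter kept the 11414 genes that reached 1 FPKM in 5 or more libraries. Limma, run on log2(FPKM + 1) with Benjamini-Hochberg adjustment and a threshold of 0.05, called 300 of them higher and 69 lower, and over all of them the log2 change had a median of 0.05. The transcript of the B cell gene Cd79a stood out in LPS replicates 2 and 3 (1.4 and 3.65 FPKM) and in PBS replicates 2 and 4 (12.7 and 6.41 FPKM), against at most 0.255 FPKM in the other 6 libraries, and changes without these 4 libraries are given for the members that they move by over 1.5 times or turn, and for Ptgs2.

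The promoters of both cyclooxygenase genes and of Ptges2 are shown because these genes carry the contrast of the results: Ptgs2 and Ptges2 were the members that tests on reads called, and Ptgs1 is the constitutive partner of Ptgs2. Each window runs from 250 bases before to 30 bases after the RefSeq start site (build GRCm38.p6, all on the plus strand, C57BL/6J reference and not BALB/c). The windows are chr1:150099781-150100060, chr2:36230176-36230455 and chr2:32395640-32395919, and capitals mark matches on either strand to the motifs named after them.
Ptgs2: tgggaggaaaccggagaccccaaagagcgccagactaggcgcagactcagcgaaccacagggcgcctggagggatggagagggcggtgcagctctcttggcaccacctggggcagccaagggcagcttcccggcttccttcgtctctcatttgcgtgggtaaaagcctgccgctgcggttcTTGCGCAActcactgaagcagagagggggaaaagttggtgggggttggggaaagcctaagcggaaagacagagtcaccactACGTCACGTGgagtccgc
Ptgs1: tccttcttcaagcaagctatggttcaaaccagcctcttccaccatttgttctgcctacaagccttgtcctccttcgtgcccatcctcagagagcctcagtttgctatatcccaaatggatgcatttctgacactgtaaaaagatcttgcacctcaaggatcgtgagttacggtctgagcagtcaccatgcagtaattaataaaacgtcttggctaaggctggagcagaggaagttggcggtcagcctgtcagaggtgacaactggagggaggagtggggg
Ptges2: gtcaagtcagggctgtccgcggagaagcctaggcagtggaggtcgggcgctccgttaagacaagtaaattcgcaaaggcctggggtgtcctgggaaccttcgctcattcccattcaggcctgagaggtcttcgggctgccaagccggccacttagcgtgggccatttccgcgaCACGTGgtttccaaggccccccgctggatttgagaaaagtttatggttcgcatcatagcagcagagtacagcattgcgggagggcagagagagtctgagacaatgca
The Ptgs2 window held a match to the C/EBP motif (TTGCNNAA) that begins 69 bases before the start site. It also held the cyclic AMP response element core (TGACGT, here on the other strand) and the E-box (CACGTG), which overlap and begin 13 and 17 bases after the start site. Of 32851 mouse promoter windows of this length, 10.4% held the C/EBP motif, 7.26% the response element core and 6.79% the E-box. The Ptges2 window held the E-box as well, and the Ptgs1 window held none of these, nor TATAAA, which 13.1% of windows held, nor the NF-kB consensus, which 7.94% held. The NF-kB consensus was not in the Ptgs2 window either, and bases further than 250 before the start site were not searched. Among the members whose windows are not shown, Hpgds held the C/EBP motif, Ptges3 the NF-kB consensus and Hpgd TATAAA. None of these genes was called by the tests on reads. The windows of Pla2g4a, Ptges, Ptger2 and Ptger4 held no match. These are letter matches and not measured sites.

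Of the 10 genes, Ptgs2 was the one whose groups did not overlap, with every LPS library above every PBS library, as in 2.08% of all genes above 0. Of the 8 members that passed the filter, limma called 0 at the adjusted threshold, against 3.23% of all tested genes, and 2 (Ptges and Ptges2) had an unadjusted p below 0.05, both higher in LPS glands, against 12.4% of all tested genes higher and 16.5% in either direction. The tests on reads recovered from the FPKM covered all 10 members, and edgeR and DESeq2 each called the same 2, Ptgs2 and Ptges2, both higher in LPS glands, against 2.36% (edgeR) and 4.31% (DESeq2) of 13898 genes called higher. The median log2 change of the 8 tested members was 0.08. Ptgs2 and Hpgds did not pass the filter and were tested singly by a two-sided exact permutation test, in which 0.00794 is the smallest p that 5 against 5 libraries can give.

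**Figure D1:**
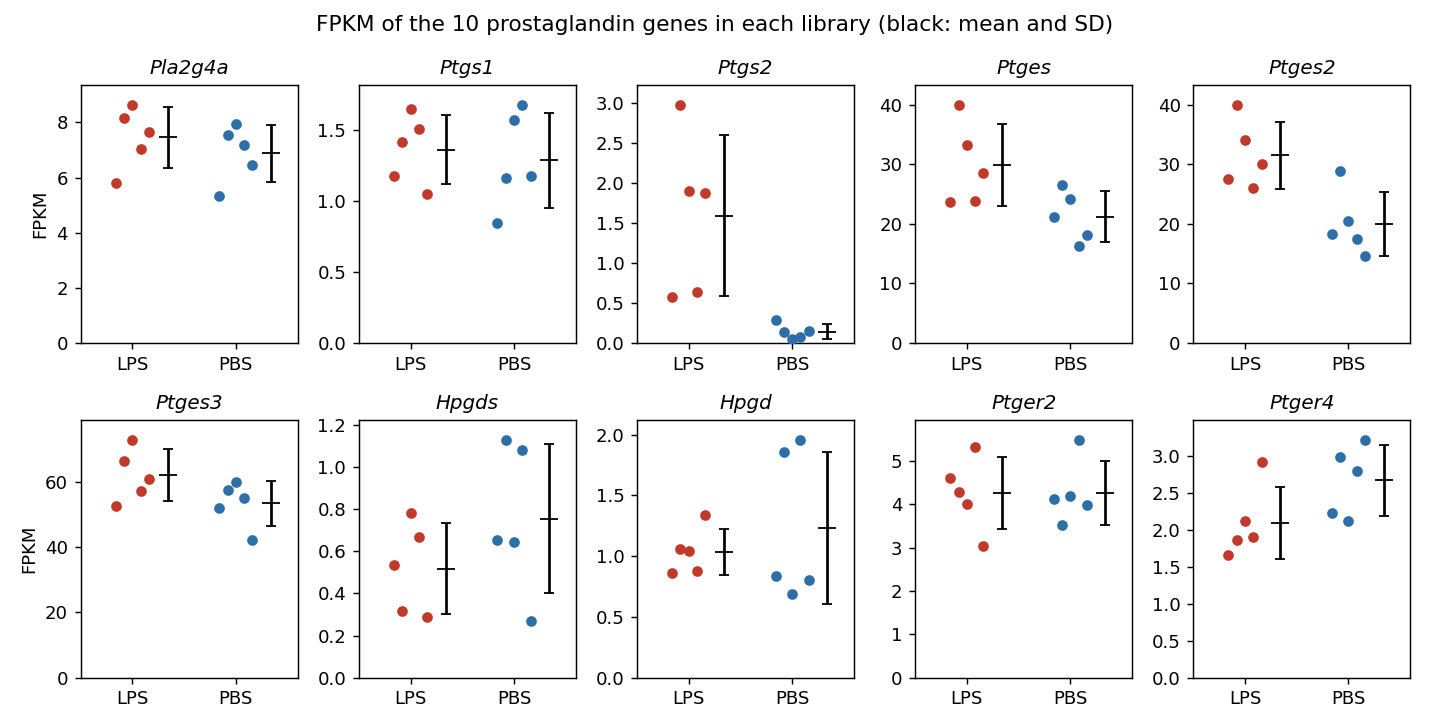
FPKM of each of the 10 genes (vertical axes from 0, scaled per gene) in the 5 LPS libraries (red) and the 5 PBS libraries (blue), with the mean and SD in black. The groups are apart for Ptgs2 (0.571 to 2.98 FPKM in LPS against 0.0531 to 0.286 FPKM in PBS libraries) and overlap for the other 9 genes.

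Pla2g4a encodes cytosolic phospholipase A2 alpha, which starts the pathway by freeing arachidonic acid. The gene spans chr1:149829618-149961290 on the minus strand (GENCODE vM21, GRCm38, the assembly also called mm10), on the same chromosome as Ptgs2. It had 5.8, 8.16, 8.64, 7.04 and 7.64 FPKM in LPS libraries (replicates 1 to 5) and 5.32, 7.55, 7.93, 7.18 and 6.44 FPKM in PBS libraries. The ranges lie on top of each other. The log2 change was 0.10 (95% confidence interval -0.16 to 0.37, limma adjusted p = 0.763), 0.06 without the 4 libraries high in Cd79a, and -0.09 with FPKM rescaled outside the milk protein genes.

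Ptgs2 (ENSMUSG00000032487, chr1:150100031-150108227, plus strand, coordinates of the authors' deposited table) encodes the inducible cyclooxygenase COX2. It was low in every PBS library and higher in every LPS library, and its level varied widely between the LPS libraries. LPS libraries had 0.571, 2.98, 1.9, 0.633 and 1.88 FPKM, and PBS libraries had 0.286, 0.133, 0.0531, 0.0714 and 0.154 FPKM. In reads this was 48, 241, 146, 45 and 142 in LPS libraries against 23, 10, 4, 5 and 11 in PBS libraries, so the PBS levels rest on few reads. The mean was 1.59 ± 1.01 FPKM in LPS libraries and 0.140 ± 0.0918 FPKM in PBS libraries (SD, n = 5 libraries each), an 11.4-fold ratio of means. Replicates 2, 3 and 5 formed the upper group of LPS libraries and replicates 1 and 4 the lower, and the lowest LPS value was still above the highest PBS value. On log2(FPKM + 1), a scale that understates changes at such levels, the change was 1.1 (two-sided exact permutation p = 0.00794). With the filter lowered to 0.1 FPKM limma called it (adjusted p = 0.0309), as it did 1.52% of genes as higher. Across all genes with at least 10 reads in at least 5 libraries, edgeR gave a log2 change of 3.39 (adjusted p = 0.00482) and DESeq2 3.40 (adjusted p = 2.49e-09). The authors' deposited table gives a log2 fold change of 1.61 (adjusted p 4.94e-09) for Ptgs2, while the normalized values in the authors' deposited table average 116 in LPS libraries and 11.1 in PBS libraries, a log2 ratio of 3.39, and how that fold change was computed is not given in the sources used here. Every one of the 10 fits that left out 1 library kept the exact permutation p at or below 0.0238, with a log2(FPKM + 1) change of 0.92 to 1.26. Without the 4 libraries high in Cd79a the change was 0.75 with the groups still apart (exact permutation p = 0.1, the smallest that 3 against 3 libraries can give), and with no filter limma's adjusted p was 0.0749 over 23059 genes.

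Ptgs1 (chr2:36230426-36252272, plus strand) encodes COX1, the cyclooxygenase that most tissues hold at a steady level. It had 1.18, 1.42, 1.65, 1.51 and 1.05 FPKM in LPS libraries and 0.849, 1.16, 1.57, 1.68 and 1.18 FPKM in PBS libraries. The groups overlap almost fully, and the log2 change was 0.05 (95% confidence interval -0.23 to 0.34, limma adjusted p = 0.899). Its direction turned to -0.07 with FPKM rescaled outside the milk protein genes and to -0.02 without PBS replicate 1. FPKM are per length, so the levels of Ptgs1 and Ptgs2 can be set side by side within a library. Ptgs2 made up 32.6%, 67.7%, 53.4%, 29.6% and 64.2% of the summed cyclooxygenase FPKM in LPS libraries, against 25.2%, 10.3%, 3.28%, 4.06% and 11.6% in PBS libraries. The 2 groups of shares do not overlap, though the highest PBS share (replicate 1, with the lowest Ptgs1 level) lies close to the lowest LPS share, and Ptgs2 passed Ptgs1 in LPS replicates 2, 3 and 5 and in none of the PBS libraries. This share does not depend on how libraries are scaled.

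**Figure D2:**
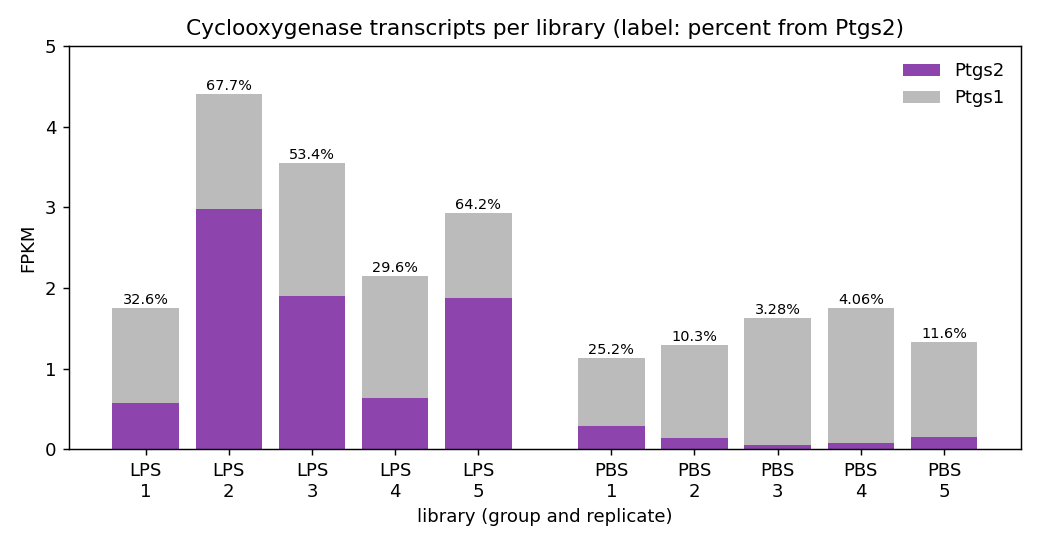
Stacked bars of Ptgs2 (purple) and Ptgs1 (grey) FPKM in each library, with the percent that Ptgs2 made up written above. The Ptgs2 share is 29.6% to 67.7% in the LPS libraries on the left and 3.28% to 25.2% in the PBS libraries on the right, while the grey part has a like height in both groups.

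The 3 prostaglandin E synthases were the most abundant members, and the values of Ptges and Ptges2 leaned upward in LPS glands. Ptges2 (chr2:32395896-32402739, plus strand, coordinates of the authors' deposited table) encodes the membrane-associated synthase 2. It had 27.5, 40, 34.1, 26 and 30.1 FPKM in LPS libraries and 18.3, 28.8, 20.4, 17.4 and 14.6 FPKM in PBS libraries. PBS replicate 2 alone reached into the LPS range, and the other 4 PBS libraries lay below every LPS library. The mean was 31.5 ± 5.62 FPKM in LPS libraries and 19.9 ± 5.38 FPKM in PBS libraries (SD, n = 5 libraries each), a ratio of 1.58. The log2 change of 0.66 (95% confidence interval 0.30 to 1.01) had a limma adjusted p of 0.0503, just past the threshold. It was called with edgeR (log2 change 0.62, adjusted p = 0.0222), with DESeq2 (0.61, adjusted p = 0.000834), and in limma when FPKM were scaled by median-of-ratios factors (0.60, adjusted p = 0.0221, against 2.32% of genes called higher). It was not called by limma with FPKM rescaled outside the milk protein genes (0.45, adjusted p = 0.0959), with quantile scaling (0.53, 0.0559), with the filter at 0.1 FPKM (adjusted p = 0.0698), with no filter (0.129) or without the 4 libraries high in Cd79a (0.63, 0.164). Leaving out PBS replicate 2 gave 0.79 with limma's adjusted p at 0.0133, and leaving out each library in turn gave 0.56 to 0.79 with an adjusted p of 0.0133 to 0.139. With replicate number as a block, which the labels do not say marks a mouse, limma called Ptges2 (adjusted p = 0.00241). That fit called 962 of 11414 genes higher. The authors' deposited table lists the gene with a log2 fold change of 0.57 (adjusted p 0.000719).

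Ptges (chr2:30889471-30929863, minus strand) encodes microsomal prostaglandin E synthase 1, the isoform known to be induced together with COX2. It had 23.7, 40, 33.2, 23.9 and 28.5 FPKM in LPS libraries and 21.1, 26.6, 24.1, 16.2 and 18.1 FPKM in PBS libraries. The groups overlap between 23.7 and 26.6 FPKM. The log2 change was 0.47 (95% confidence interval 0.12 to 0.82, unadjusted p = 0.0134). The gene was called by none of limma (adjusted p = 0.157), edgeR (0.121) and DESeq2 (0.0579). With replicate number as a block, limma called it (adjusted p = 0.00844), as it did 962 of 11414 genes as higher. The labels do not say that a number marks a mouse. Within the LPS group, Ptges followed the same order of libraries as Ptgs2, with replicate 2 highest, then 3, 5, 4 and 1. Part of that order rests on near ties and it was not tested. Replicates 4 and 1 had 23.9 and 23.7 FPKM of Ptges, and replicates 3 and 5 had 1.9 and 1.88 FPKM of Ptgs2. The PBS libraries ran in another order. LPS replicates 2 and 3, the highest for Ptges and Ptges2, were also the 2 libraries with the lowest milk protein share (32.2% and 32.6%), and with FPKM rescaled outside the milk protein genes the log2 change was 0.26 for Ptges (limma adjusted p = 0.296). Without the 4 libraries high in Cd79a it was 0.26 as well (adjusted p = 0.649).

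Ptges3 (chr10:128058954-128077272, plus strand) encodes the cytosolic synthase, better known as p23, a co-chaperone of Hsp90. It had 52.5, 66.4, 72.9, 57 and 60.8 FPKM in LPS libraries and 51.8, 57.6, 60, 55.1 and 42.1 FPKM in PBS libraries, which overlap, with a log2 change of 0.21 (95% confidence interval -0.04 to 0.46, limma adjusted p = 0.388), and 0.00 with FPKM rescaled outside the milk protein genes. A processed copy of the gene, Ptges3-ps, was listed at 13.4 to 22.2 FPKM in LPS libraries and 11.8 to 18.8 FPKM in PBS libraries, so the split of reads between the pair is uncertain. Together the 3 synthases summed to 104 to 146 FPKM in LPS libraries and 74.9 to 113 FPKM in PBS libraries. Of that sum Ptges2 held 24.3% to 27.3% in LPS libraries and 19.5% to 25.5% in PBS libraries, and Ptges3 held 45.4% to 53.3% in LPS libraries against 51% to 62.1% in PBS libraries. Both shares overlap between the groups through PBS replicate 2.

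Hpgds (chr6:65117293-65144908, minus strand), the haematopoietic prostaglandin D synthase of mast cells and some T helper and antigen-presenting cells, was the second member under the filter. It had 0.534, 0.317, 0.782, 0.667 and 0.289 FPKM in LPS libraries and 0.652, 1.13, 0.646, 1.08 and 0.27 FPKM in PBS libraries. The log2(FPKM + 1) change was -0.20 (two-sided exact permutation p = 0.31), and -0.02 without the 4 libraries high in Cd79a. The 2 values above 1 FPKM are those of PBS replicates 2 and 4. Hpgd (chr8:56294585-56321043, plus strand) encodes the dehydrogenase that inactivates prostaglandin E2. It had 0.863, 1.06, 1.04, 0.875 and 1.34 FPKM in LPS libraries and 0.836, 1.86, 0.688, 1.96 and 0.8 FPKM in PBS libraries. PBS replicates 2 and 4 again lay above the other 3 PBS libraries, and they are the 2 PBS libraries with high Cd79a (12.7 and 6.41 FPKM). The log2 change of Hpgd was -0.09 (95% confidence interval -0.47 to 0.29, limma adjusted p = 0.865). It was -0.20 with FPKM rescaled outside the milk protein genes and 0.18 without the 4 libraries richest in Cd79a.

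Of the prostaglandin E2 receptors, Ptger2 and Ptger4 both couple to cyclic AMP production. Ptger2 (EP2, chr14:44988195-45003820, plus strand) had 4.6, 4.29, 4, 5.32 and 3.04 FPKM in LPS libraries and 4.13, 3.52, 4.19, 5.49 and 3.99 FPKM in PBS libraries. The groups share one range, with a log2 change of -0.01 (95% confidence interval -0.30 to 0.28, limma adjusted p = 0.988), -0.18 with FPKM rescaled outside the milk protein genes and 0.04 without the 4 libraries high in Cd79a. Ptger4 (EP4, chr15:5206661-5244187, minus strand) had 1.66, 1.87, 2.13, 1.91 and 2.93 FPKM in LPS libraries and 2.24, 2.99, 2.12, 2.8 and 3.23 FPKM in PBS libraries. Its LPS values lie mostly at the lower end, with replicate 5 the exception, and the log2 change was -0.25 (95% confidence interval -0.53 to 0.04, limma adjusted p = 0.38), -0.40 with FPKM rescaled outside the milk protein genes and -0.16 without the 4 libraries high in Cd79a. The annotated span of Ptger2 overlaps the antisense gene Gm17173 and that of Ptger4 overlaps Ttc33 on the other strand. The labels do not state whether strand was kept, so reads of these pairs are uncertain.

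By mean FPKM in LPS glands the order was Ptges3, Ptges2, Ptges, Pla2g4a, Ptger2, Ptger4, Ptgs2, Ptgs1, Hpgd and Hpgds. Neighbours whose ranges overlapped were Ptges2 and Ptges, Ptger4 and Ptgs2, Ptgs2 and Ptgs1, and Ptgs1 and Hpgd. In PBS glands Ptges stood just before Ptges2, and Ptgs2 came last (0.140 FPKM), after Ptgs1, Hpgd and Hpgds (0.754 FPKM). There the ranges overlapped between Ptges and Ptges2, Pla2g4a and Ptger2, Ptgs1 and Hpgd, Hpgd and Hpgds, and Hpgds and Ptgs2. Ptgs2 thus held place 7 of 10 in LPS glands and place 10 in PBS glands. Apart from Ptgs2, the order differed in the place of Ptges and Ptges2.

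The 5 tested genes with the FPKM pattern most like that of Ptgs2, by Pearson's r of log2(FPKM + 1) over the 10 libraries, were Ifit3 (r = 0.983), Il1b (0.983), Dnajb6 (0.981), Mxd1 (0.979) and Acod1 (0.978). These r describe libraries that share their group and carry no test. Il1b encodes a pro-inflammatory cytokine and had 15.1, 61.4, 25.5, 16.4 and 40.4 FPKM in LPS libraries against 8.77, 6.43, 6.24, 6.14 and 7.28 FPKM in PBS libraries. Acod1, the itaconate-making enzyme of activated macrophages, had 2.14, 14.2, 6.68, 3.34 and 7.85 FPKM in LPS libraries against 1.05, 1.83, 0.541, 0.872 and 1.02 FPKM in PBS libraries. In both genes LPS replicate 2 was highest and replicate 1 lowest, as for Ptgs2. Ifit3, an interferon-induced gene with the close paralog Ifit3b, ranged from 28.8 to 65 FPKM in LPS libraries and from 15.8 to 21 FPKM in PBS libraries, so its reads may be split.

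Called markers of neutrophils, the first cells drawn into an endotoxin-treated gland, were higher in LPS glands, as was Ptgs2. Of 16 listed markers 9 were tested and 6 were called, all higher in LPS glands, against 2.63% of all tested genes. The filter bears on this count. The called Cxcr2 and Clec4d reached 1 FPKM in every LPS library but, among PBS libraries, in replicate 2 alone, so they passed through the LPS group. Of the untested markers, Elane and Mpo were lower (log2 changes -0.30 and -0.14). Ly6g, Mmp8, Trem1, Trem3 and Clec4e were higher (0.75 to 1.15). The summed FPKM of the 16 markers was 7380 to 14200 in LPS libraries and 712 to 1870 in PBS libraries, nearly all of it S100a8 and S100a9, which epithelium can also express. Without that pair the sum was 21.6, 76.7, 32.8, 29.2 and 58.2 FPKM in LPS libraries and 10.6, 17.8, 9.75, 21.6 and 12.2 FPKM in PBS libraries. The groups met at 21.6 FPKM, in LPS replicate 1 and PBS replicate 4, but not in the same genes. The granule protein genes Ngp and Elane stood at 0.784 and 0.0576 FPKM in LPS replicate 1 against 5.8 and 1.93 FPKM in PBS replicate 4, while the called markers Csf3r and Cxcr2 stood at 3.93 and 1.67 FPKM in LPS replicate 1 against 2.5 and 0.939 FPKM in PBS replicate 4. In the LPS group, replicate 2 was highest and replicate 1 lowest in both Ptgs2 and this marker sum. The PBS group differed. There Ptgs2 was highest in replicate 1 (0.286 FPKM, marker sum 10.6 FPKM) and the sum was highest in replicate 4 (Ptgs2 at 0.0714 FPKM). The part of neutrophils in the Ptgs2 result was not tested. Of 14 macrophage and monocyte markers 10 were tested and 0 were called by limma (1 at an unadjusted p below 0.05, 0 by edgeR and 2 lower by DESeq2), with sums of 79.8 to 185 FPKM in LPS libraries and 104 to 380 FPKM in PBS libraries. Of 11 mast cell markers 7 were tested and 1, Kit, was called higher, with sums of 21.1 to 36.2 FPKM in LPS libraries and 14.2 to 37.5 FPKM in PBS libraries. The protease genes of that list did not share its change. Cpa3 and Cma1 had a log2 change of -0.17, Mcpt4 -0.06, Tpsb2 0.15 and Tpsab1 0.30, none called. Hdc was at 1.06 (limma adjusted p = 0.0658), and edgeR and DESeq2 called it higher. The list thus has no common direction. Of 14 B and T cell markers 0 passed the filter, with sums of 1.16 to 31.2 FPKM in LPS libraries and 1.38 to 90.6 FPKM in PBS libraries. The milk protein genes Csn1s1 (43900 to 65400 FPKM in LPS and 42700 to 62300 FPKM in PBS libraries) and Wap (40100 to 67100 FPKM in LPS and 61200 to 80300 FPKM in PBS libraries) were high in every library of this lactating tissue. Their log2 changes were 0.01 for Csn1s1 and -0.44 for Wap (limma adjusted p = 0.988 and 0.351). Among the other marker lists, limma called Krt5 of the myoepithelial and Krt8 of the secretory luminal genes, both higher. The secretory luminal list did not share the rise of Krt8. Its 10 tested genes had a median log2 change of -0.17. Before adjustment, limma's p was under 0.05 for 5 of them, of which 3 fell and 2 rose. With edgeR 0 of that list were called. DESeq2 called Krt8 higher, and Csn2 (-0.68, adjusted p = 0.00537) and Csn3 (-0.52, 0.0248) lower. Limma called 0 of the endothelial, fibroblast, adipocyte and hormone-sensing luminal genes. In those lists 4 genes had an unadjusted p below 0.05, edgeR called 1 and DESeq2 called 2. By list, the most abundant markers had log2 changes of -0.56 (Lyz2) and -0.55 (C1qa) for macrophages, 0.62 (Kit) and -0.06 (Mcpt4) for mast cells, 0.04 (Pecam1) and -0.17 (Cldn5) for endothelium, and -0.01 (Col3a1) and 0.04 (Dcn) for fibroblasts. They were 0.04 (Cfd) and -0.05 (Fabp4) for adipocytes, 0.32 (Acta2) and 0.40 (Tagln) for myoepithelium, and 0.07 (Prlr) and 0.62 (Ly6a) for hormone-sensing cells. Of these 14 genes, limma called Kit.

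**Figure D3:**
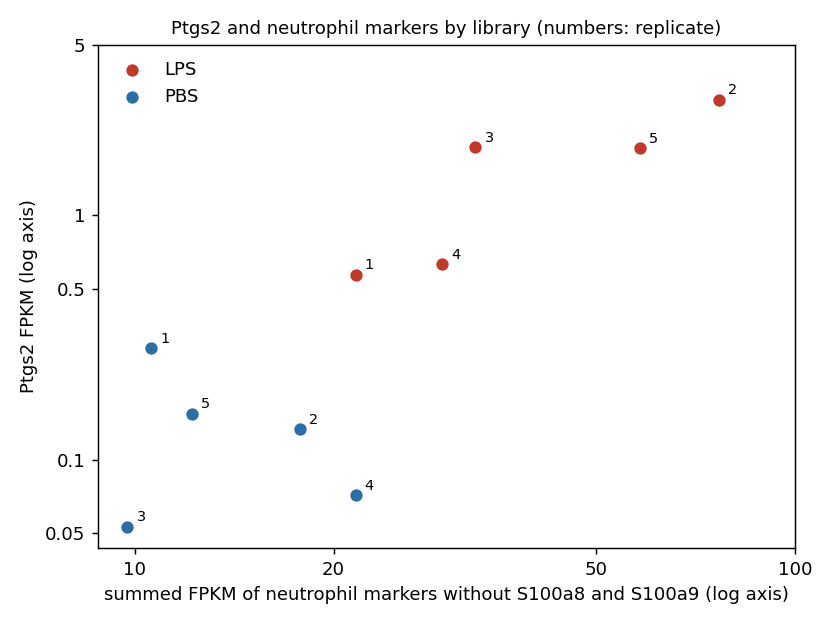
Ptgs2 FPKM (vertical, log axis) against the summed FPKM of the neutrophil markers other than S100a8 and S100a9 (horizontal, log axis) in 5 LPS (red) and 5 PBS (blue) libraries, numbered by replicate. The LPS libraries lie at 21.6 to 76.7 FPKM of marker sum and the PBS libraries at 9.75 to 21.6 FPKM, and LPS replicates 2 and 5 are highest in the sum.

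The rest of the eicosanoid pathway was read from 6 lists of 75 genes, all in the table, of which 39 passed the filter. Limma called 0 of the 39 against 3.23% of all tested genes, and edgeR, whose read filter kept 56 of the 75, also called 0. At an unadjusted p below 0.05, 9 of the 39 were higher and 3 lower in LPS glands, against 12.4% of all tested genes higher and 16.5% in either direction, and the median log2 change was 0.08 against 0.05 over all tested genes. DESeq2 called 4 of the same 56, against 6.53% of its genes, of which Ggt5 and Ptgfrn were higher and Dpep1 and Pla2g4f lower. The authors' deposited table also lists Ggt5 (log2 fold change 0.76, adjusted p 0.00841), Dpep1 (-0.62, 0.0186) and Pla2g4f (-0.66, 0.0358). The lowest limma adjusted p was 0.0807, for Ptgfrn, a regulator of the prostaglandin F2 alpha receptor, with 9.98 to 14.2 FPKM in LPS libraries and 7.81 to 9.98 FPKM in PBS libraries (log2 change 0.37). In 2 genes every LPS library lay above every PBS library, against 3.53% of all tested genes, and these were named after their values were seen. Akr1b3, an aldo-keto reductase with prostaglandin F synthase activity, had 7.3 to 9.25 FPKM in LPS libraries and 6.2 to 7.19 FPKM in PBS libraries (limma adjusted p = 0.114). Pla2g2e, a secreted phospholipase A2, had 1.22 to 2.35 FPKM in LPS libraries and 0.625 to 1.17 FPKM in PBS libraries (limma adjusted p = 0.085).

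Other genes of prostanoid synthesis had a median log2 change of 0.17 over 5 tested, with Cbr1, a carbonyl reductase that can reduce prostaglandin E2, at 0.02 (limma adjusted p = 0.954) and Akr1b8, an aldo-keto reductase, at 0.39 (0.296). Of breakdown and transport, 6 genes were tested with a median of 0.14, and the prostaglandin reductases Ptgr2 and Ptgr3 (listed as Zadh2) changed by 0.15 (0.484) and -0.17 (0.485). Of the other receptors 3 were tested with a median of -0.07. Ptger1, the EP1 receptor, had 3.25 to 5.47 FPKM in LPS libraries and 3.1 to 5.69 FPKM in PBS libraries. Ptger3, the EP3 receptor, named after its values were seen, had 0.338 to 1.96 FPKM in LPS libraries and 1.52 to 2.22 FPKM in PBS libraries (log2 change -0.59, 95% confidence interval -1.05 to -0.13, unadjusted p = 0.0153, limma adjusted p = 0.169). Other phospholipases A2 had a median of 0.08 over 9 tested, with Pnpla8 at 0.08 (0.738) and Pla2g12a at -0.09 (0.744). In the leukotriene branch 5 genes were tested, with a median of 0.38, the largest of the 6 lists. At an unadjusted p below 0.05, 3 of the 5 were higher and 1 lower. Of all tested genes, 12.4% were higher and 16.5% in either direction. Alox5ap, the protein that presents arachidonic acid to 5-lipoxygenase, had 7.35 to 15.1 FPKM in LPS libraries and 6.23 to 8.77 FPKM in PBS libraries (log2 change 0.38, limma adjusted p = 0.274). Lta4h, which makes leukotriene B4, changed by -0.25 (0.386). Of arachidonate supply 11 genes were tested with a median of 0.05. Mgll, the lipase that releases arachidonic acid from 2-arachidonoylglycerol, changed by 0.28 (0.495), and Acsl4, which loads arachidonic acid onto coenzyme A, by -0.09 (0.867). The values in parentheses are limma adjusted p.

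**Figure D4:**
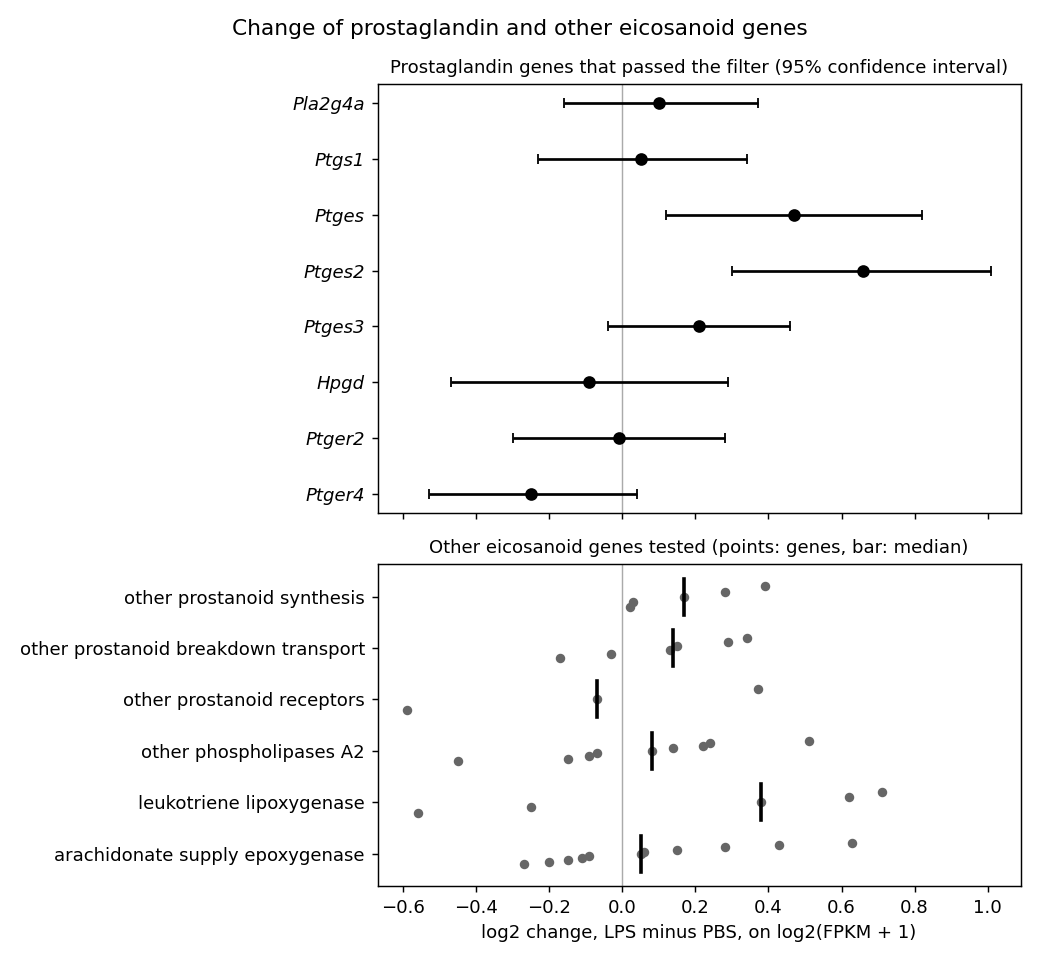
Log2 change, LPS minus PBS, on log2(FPKM + 1), for the 8 tested prostaglandin genes with 95% confidence intervals (top) and for the 39 tested genes of the 6 other eicosanoid lists (bottom, points are genes and bars medians). The intervals of Ptges (0.12 to 0.82) and Ptges2 (0.30 to 1.01) lie above 0 and those of the other 6 members include 0.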

How the data were processed

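RNA from LPS and PBS glands was sequenced as 5 LPS and 5 PBS libraries made of total RNA, per the labels. The tools named in the submitters' processing notes are STAR 2.5, HTSeq 0.6.1 and DESeq2 (stated version 2), and the build is mm10. Settings and roles are not given in the sources used here. The deposited table holds FPKM for 35275 genes, made by the authors. A second deposited table of 908 genes with an adjusted p-value below 0.05 gives raw read counts, normalized values (a signal, counts divided by size factors), log2 fold changes and p-values, all the authors' per the file headers. The members and the gene lists were chosen with earlier results of these data known.

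Whole reads were recovered for all 23059 genes above 0 from the FPKM and gene length, within a tolerance of 0.002 reads, with depths of 15734303 to 18869545 reads. Depth bears on counting error only, since PCR copies cannot be told apart, and the 95% confidence intervals printed are limma's, from the spread between libraries. limma 3.58.1 (trend, R 4.3.3) was run on log2(FPKM + 1), pseudocount 1, for genes at 1 FPKM or more in at least 5 libraries. Members below that were tested by a two-sided exact permutation test on log2(FPKM + 1). edgeR 4.0.16 (quasi-likelihood, TMM) and DESeq2 1.42.0 on recovered reads (at least 10 in at least 5 libraries) were alternatives, with other pseudocounts, filters and scalings, a replicate block and left-out libraries. In limma and edgeR, p-values were adjusted over all tested genes. DESeq2, with its default independent filtering, gave some fitted genes no adjusted p, and its shares count these as not called. The fits were tested on simulated data. Replicate libraries of each group differed beyond counting noise and none was a duplicate.

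All 10 members were named. Of each other eicosanoid list, up to 4 called genes of largest change and the 2 of highest mean FPKM were named, and likewise the 2 of highest mean FPKM of each marker list. For Ptgs2 the 5 tested genes of highest Pearson r were named. Coordinates come from the authors' table for Ptgs2 and Ptges2 and from GENCODE vM21 otherwise, on the same assembly. Promoters come from RefSeq (GRCm38.p6), and all 10 members had one.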

Additional observations from a re-analysis of the deposited data

How the results depend on the processing

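Ptgs2 kept its direction under every alternative run. Its p was 0.00794 in the exact permutation test, 0.0309 (limma adjusted) with the filter at 0.1 FPKM, and 0.0749 (limma adjusted) with no filter. Without the 4 libraries richest in Cd79a, its log2 change was 0.75 (exact permutation p = 0.1, the smallest that 3 against 3 libraries allow). Of the 8 members tested, limma called 0, and 1 of 10 with the filter at 0.1 FPKM (Ptgs2). Of the 8 it called 1 with median-of-ratios scaling (Ptges2) and 0 to 1 without each library in turn (Ptges2 without LPS replicate 1, LPS replicate 4 or PBS replicate 2), and edgeR and DESeq2 called 2 of 10. The other eicosanoid genes called numbered 0 as reported, 2 when FPKM were rescaled outside milk proteins, 4 with DESeq2 and 0 to 3 without each library. Over all genes, 369 were called as reported (300 higher, 69 lower), 126 with no filter, 907 with DESeq2, 8 without the 4 libraries richest in Cd79a and 150 to 517 without each library. Split by direction, calls were 128 higher and 348 lower when rescaled outside milk proteins (median log2 change of all tested genes -0.13), 233 and 145 with quantile scaling, 265 and 99 with median-of-ratios scaling, and 328 and 129 with edgeR. Directions turned for members with changes near 0. Rescaled outside milk proteins, Pla2g4a was at -0.09 and Ptgs1 at -0.07. Without each library, Ptgs1 ranged from -0.02 to 0.11, Hpgd from -0.18 to 0.02 and Ptger2 from -0.08 to 0.08. Without the 4 libraries richest in Cd79a, Hpgd was at 0.18 and Ptger2 at 0.04. The cause was not tested.

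Replicate numbers are shared by the groups, but the labels do not say that a number marks a mouse. Deviations of same-numbered libraries from their group means correlated at 0.099 to 0.494 over the 5 pairs, and 5 of 10 libraries correlated best with their own number. These values do not settle whether the numbers pair the libraries. The reported fit therefore has no pairing, and the fit with a replicate block is given as an alternative. With a replicate block, 1229 genes, 2 members (Ptges, adjusted p = 0.00844, and Ptges2, 0.00241) and 6 other eicosanoid genes were called by limma, and Ptgs2 reached the smallest exact p of 0.0625 that 5 pairs allow. Quantile scaling was not run for Ptgs2 and Hpgds, which it leaves out with the filter. At this depth, Ptgs2 rests on 4 to 23 reads in PBS libraries.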
